A study of Homo sapiens with 24 samples.

Results

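HT29 cells, an established human colon adenocarcinoma line, were treated for 6 h with TRAIL and with the culture supernatant (SN) of the dairy bacterium Propionibacterium freudenreichii, alone and together, and the question was where the joint response departs from the sum of the single responses. The contrast was (TRAIL+SN minus SN) minus (TRAIL minus NT), with NT the untreated cells, and it used 16 of the 24 arrays, 4 in each of 4 of the 6 groups. TRAIL was given at 100 ng/ml as a Flag-tagged ligand with 2 µg/ml of anti-Flag M2 antibody, so both TRAIL groups also carried that antibody. SN came from strain ITG P9 grown in DMEM-based medium and was used at a 1/2 dilution. The remaining 8 arrays were cells given C3/C2, which is 30 mM propionate with 15 mM acetate, with or without TRAIL. All samples are from 1 cell line at 1 time point, and the study's methods describe 2 independent experiments in duplicate without saying which arrays belong together, so p-values measure the spread between arrays.

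TRAIL is a ligand of the TNF superfamily. On binding its death receptors it recruits an adaptor and initiator caspases, and a side branch of the same receptors activates the NF-kB transcription factors. NF-kB dimers that contain p65 drive early genes such as neutrophil-attracting chemokines and their own inhibitor IkB-alpha, while the dimer of RelB and p52 belongs to a slower arm linked to lymphoid cytokines. Propionate and acetate, the main products of propionibacterial fermentation, are short-chain fatty acids, and propionate inhibits histone deacetylases.

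A level is the log2 signal of a gene's probe minus the 75th percentile of its array, so 0 is the 75th percentile and 1 unit is a doubling. Sums were taken on this log2 scale, where additive effects are effects that multiply. A gene was called above the sum when the contrast was at least 1 with a Benjamini-Hochberg adjusted p under 0.05 (limma, all genes tested), and below the sum when it was at most -1. Differences in amount of RNA per cell and in the mix of cell states cannot be told apart in these bulk samples. All 11 markers of colon epithelium were well above background on all 16 arrays. Their mean levels ran from -1.02 (CEACAM5) to 8.41 (KRT19). Of 12 markers of other cell types 6 were also measured on all 16, at mean levels from -4.34 (VWF) to 1.32 (CD14). Among these 6, PTPRC was at -4.27 and CD68 at -1.15. COL1A2, COL3A1 and DCN were measured on no array.

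The arrays lay on 4 slides, and this bears on every value of the contrast. NT replicate 1 was on slide 1, NT replicates 2 to 4 on slide 2, all SN and TRAIL arrays on slide 3 and all TRAIL+SN arrays on slide 4. A slide effect on a probe therefore enters the contrast with slide 3 counted 2 times against slide 4 and the slides of NT, and slide and treatment cannot be told apart in it. Only SN against TRAIL (slide 3) and TRAIL+SN against TRAIL+C3/C2 (slide 4) were measured within a slide. No estimate of the contrast with slide as a fixed term exists.

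Of 20703 genes tested, 572 were above the sum, which is 2.76% of all genes, and 69 were below it, which is 0.333%. The median contrast over all genes was -0.01, and the median standard error of a gene's contrast was 0.15. The split between the directions depended on the scaling. With the authors' normalized table, scaled to each array's median, 439 genes were above and 161 below, and with scaling to the spike-in controls 340 were above and 296 below. The genes above the sum fell into 3 shapes. In 33 the TRAIL+SN level was at least 1 above each of NT, SN and TRAIL. In 286 both single treatments lay at least 1 below NT while TRAIL+SN was not raised above NT. The other 253 had neither shape. Below the sum, 12 genes rose by at least 1 with TRAIL and were at least 1 lower with TRAIL+SN than with TRAIL, 19 rose by at least 1 in all of TRAIL, SN and TRAIL+SN, 3 were lowest in TRAIL+SN and 35 had none of these shapes.

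Textbook targets of NF-kB were found on both sides of the sum. The promoters of 3 genes above it and then of 3 below it are shown so that the directions can be compared. Each sequence holds the 250 bases before the RefSeq start of the gene (GRCh38.p14), 5′ to 3′ on the gene's strand, with capitals marking matches on either strand to the kappaB consensus, and in CXCL10 also the match to the interferon response element core (GAAA, any 2 bases, GAAA). The genes were picked after their values were seen.
CXCL1 (chr4:73869143-73869392, plus strand): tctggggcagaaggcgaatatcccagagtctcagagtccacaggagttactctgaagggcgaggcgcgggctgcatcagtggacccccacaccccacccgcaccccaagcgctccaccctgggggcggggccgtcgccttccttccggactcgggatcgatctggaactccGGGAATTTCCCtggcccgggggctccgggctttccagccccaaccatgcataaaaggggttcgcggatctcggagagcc
CXCL2 (chr4:74099196-74099445, minus strand): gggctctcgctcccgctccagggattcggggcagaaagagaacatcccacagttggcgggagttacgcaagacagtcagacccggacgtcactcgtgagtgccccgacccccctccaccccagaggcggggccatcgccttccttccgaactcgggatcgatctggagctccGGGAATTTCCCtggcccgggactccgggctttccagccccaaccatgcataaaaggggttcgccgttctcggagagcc
NFKBIA (chr14:35404750-35404999, minus strand): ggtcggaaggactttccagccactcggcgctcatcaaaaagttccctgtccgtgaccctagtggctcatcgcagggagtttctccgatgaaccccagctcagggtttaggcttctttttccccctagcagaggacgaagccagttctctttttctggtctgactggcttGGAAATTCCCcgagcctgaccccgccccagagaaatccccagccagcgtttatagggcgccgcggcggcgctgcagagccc
UBD (chr6:29559733-29559982, minus strand): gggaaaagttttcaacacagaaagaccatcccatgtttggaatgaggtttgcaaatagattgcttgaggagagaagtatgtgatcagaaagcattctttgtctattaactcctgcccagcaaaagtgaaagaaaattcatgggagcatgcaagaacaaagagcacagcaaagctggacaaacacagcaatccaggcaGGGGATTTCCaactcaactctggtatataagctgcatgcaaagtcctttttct
LTB (chr6:31582426-31582675, minus strand): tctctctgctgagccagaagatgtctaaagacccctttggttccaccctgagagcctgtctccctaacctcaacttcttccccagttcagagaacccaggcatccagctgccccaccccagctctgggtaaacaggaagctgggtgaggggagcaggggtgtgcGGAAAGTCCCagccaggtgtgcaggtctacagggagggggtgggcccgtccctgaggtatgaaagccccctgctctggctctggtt
CXCL10 (chr4:76023498-76023747, minus strand): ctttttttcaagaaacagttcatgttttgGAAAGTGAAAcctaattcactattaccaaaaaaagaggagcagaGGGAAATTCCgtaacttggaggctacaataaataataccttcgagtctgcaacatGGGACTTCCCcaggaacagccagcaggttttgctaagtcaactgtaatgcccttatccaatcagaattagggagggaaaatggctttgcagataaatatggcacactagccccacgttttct

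CXCL1, CXCL2 and CXCL3 carry the same letters GGGAATTTCCC beginning 78 or 79 bases before the start, where overlapping matches on both strands were merged. In NFKBIA the match lies 81 bases before the start, in UBD 53 and in LTB 86. CXCL10 has 2 matches. Of 9 genes above the sum that were scanned 8 had a promoter entry, and 6 of these held a kappaB match. Of 10 scanned below it 9 had an entry, and 4 of these held a match. IL8 (CXCL8) and ICAM1 above the sum had none, nor had ITGAM, IL4I1, MCAM, PTGS2 and PDLIM4 below it. The consensus was GGGRNNYYCC, where R is A or G, Y is C or T and N is any base. Stretches that depart from it in any letter were not counted, so having no match does not show that a kappaB site is absent. Among all 35114 promoters of this length 9.96% held a kappaB match and 3.02% the interferon element core. The genes scanned were picked after their values were seen, and those shown as known NF-kB targets. Their matches are therefore not set against that share. A match describes letters in a window and says nothing about binding in these cells.

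The genes with TRAIL+SN highest were led by chemokines that attract neutrophils. No NT or SN array had IL8 (CXCL8) well above background. Its level was -2.61, -2.40, -2.25 and -1.79 with TRAIL and 0.93, 0.86, 0.95 and 0.93 with TRAIL+SN. Every TRAIL+SN array was above every TRAIL array, and the mean with TRAIL+SN was 3.18 higher than with TRAIL. TRAIL+SN was at least 83.3-fold above SN, while TRAIL was at least 10.9-fold above NT, both taken against the lowest level that counted as well above background. The fitted contrast was 3.59 ± 0.46 (SE, n = 4 arrays per group, adjusted p = 2.209e-05), a value that includes the difference between NT and SN levels below background.

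CXCL1 was measured on all 16 arrays. Its levels were -0.89, -0.90, -1.03 and -1.25 in NT and -1.95, -1.83, -2.19 and -2.06 in SN. TRAIL gave 2.63, 2.66, 2.89 and 3.14, and TRAIL+SN gave 4.98, 4.88, 4.32 and 4.35. SN alone lay below NT and TRAIL+SN lay above every other array of the 4 groups. TRAIL raised CXCL1 by 3.85 ± 0.14 without SN and by 6.64 ± 0.14 with it, a contrast of 2.79 ± 0.20 (SE, adjusted p = 3.52e-08).

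CXCL2 had levels of -2.77, -2.83, -2.50 and -2.67 in NT and -2.44, -2.51, -2.41 and -2.38 in SN. With TRAIL it was at 0.01, 0.01, 0.55 and 0.83, and with TRAIL+SN at 3.57, 3.55, 3.21 and 3.16. The SN arrays overlapped those of NT, and no TRAIL+SN array overlapped a TRAIL array. The contrast was 2.76 ± 0.20 (adjusted p = 4.699e-08). CXCL3 had the smallest contrast among the called chemokines with TRAIL+SN highest, 1.07 ± 0.20, and its call was lost under 5 alternatives, among them the median and spike-in scalings, normexp and leaving out SN replicate 4 or TRAIL replicate 2. CXCL1, CXCL2 and CXCL3 are close relatives whose probes may detect each other's transcripts. A further probe gave 2.42 for CXCL1 and 2.01 for CXCL2, each measured on all 16 arrays.

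CCL20, which attracts lymphocytes and dendritic cells through CCR6, rose with each treatment. Among NT arrays 2 of 4 measured it well above background, with levels of -5.73, -5.79, -4.85 and -5.13, and all SN, TRAIL and TRAIL+SN arrays did. SN gave -3.53, -3.25, -2.69 and -3.01, TRAIL gave -0.05, -0.01, 0.44 and 0.83, and TRAIL+SN gave 4.24, 4.21, 3.96 and 3.95. The 4 groups did not overlap. The contrast was 1.54 ± 0.32 (adjusted p = 0.001682).

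Of 22 chemokines on the array 15 were tested, 6 were above the sum and 2 below it, against 2.76% and 0.333% of all genes. The list's median contrast was 0.54 beside -0.01 over all genes. The sixth gene above the sum, CXCL5, had another shape, with a level of -1.76 in NT against -3.97 in SN, -3.98 in TRAIL and -4.03 in TRAIL+SN. The chemokines below the sum were CXCL10 and CX3CL1, the latter at -1.22 ± 0.37 (adjusted p = 0.02046).

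**Figure D1:**
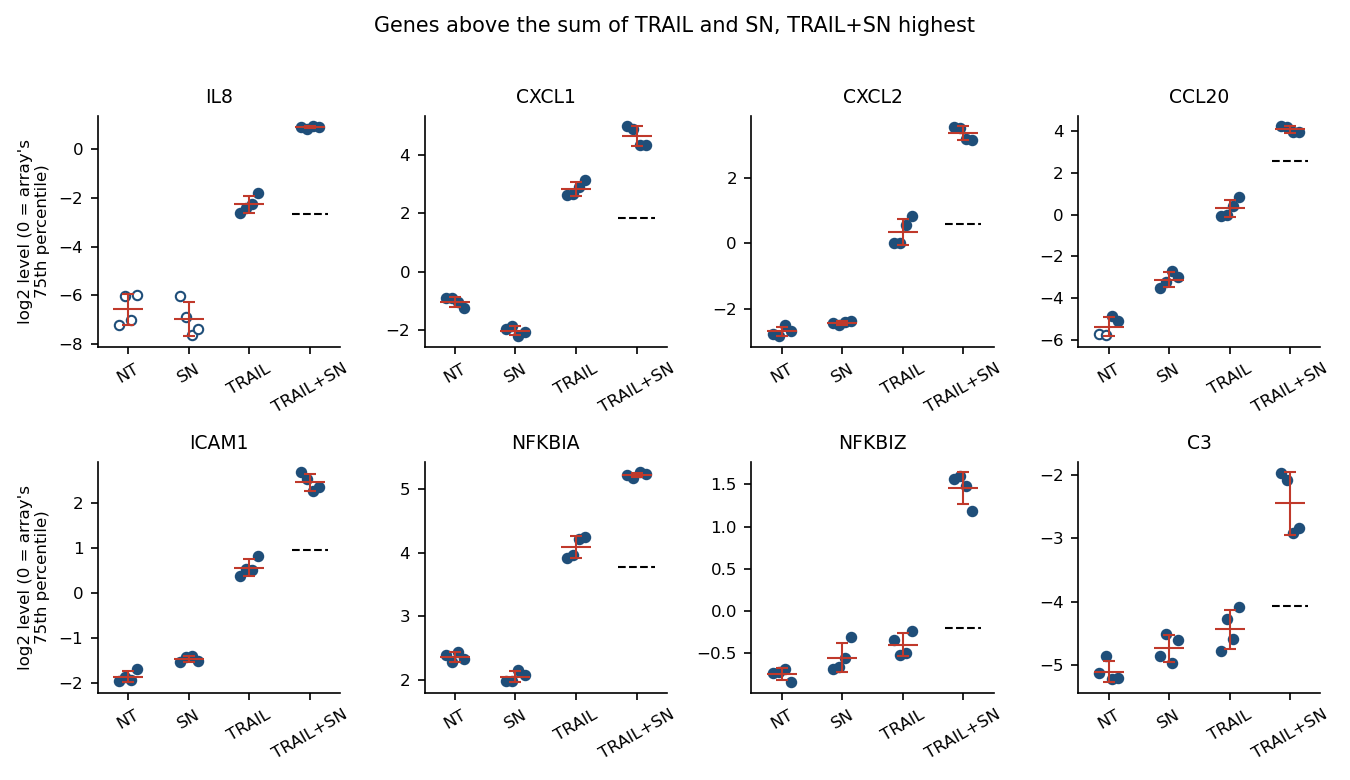
Log2 level on each array (points, open where the probe was not well above background) of 8 genes above the sum, with group mean and SD in red (n = 4 arrays) and the log2 sum of the single effects as a dashed line. In each panel all 4 TRAIL+SN arrays lie above the dashed line and above every NT, SN and TRAIL array.

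The inhibitors NFKBIA and NFKBIZ stood in the same shape. NFKBIA, which encodes IkB-alpha and holds p65 dimers in the cytoplasm, had levels of 2.39, 2.27, 2.44 and 2.33 in NT and 1.99, 1.98, 2.15 and 2.08 in SN. TRAIL gave 3.92, 3.96, 4.23 and 4.25 and TRAIL+SN 5.22, 5.18, 5.27 and 5.24. TRAIL raised it by 1.73 ± 0.13 without SN and by 3.18 ± 0.13 with SN, with a contrast of 1.45 ± 0.18 (adjusted p = 1.667e-05).

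NFKBIZ, a nuclear IkB protein that works on secondary response genes, had small single effects, 0.35 ± 0.10 with TRAIL alone. Its levels ran from -0.85 to -0.69 in NT, from -0.70 to -0.31 in SN and from -0.53 to -0.24 in TRAIL, ranges that overlap between SN and each of the others. With TRAIL+SN it was at 1.56, 1.60, 1.48 and 1.19. The contrast was 1.67 ± 0.14 (adjusted p = 4.681e-07).

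ICAM1, an adhesion molecule for leukocytes, was at -1.95, -1.87, -1.92 and -1.69 in NT and -1.53, -1.43, -1.39 and -1.51 in SN. It reached 0.37, 0.53, 0.52 and 0.81 with TRAIL and 2.68, 2.52, 2.26 and 2.35 with TRAIL+SN, with a contrast of 1.50 ± 0.14 (adjusted p = 6.703e-07). C3, the central complement component, was a dim probe at -5.10 ± 0.16 in NT, -4.73 ± 0.21 in SN, -4.43 ± 0.31 in TRAIL and -2.45 ± 0.49 in TRAIL+SN (SD, n = 4). Its contrast was 1.61 ± 0.29 (adjusted p = 5.279e-04) and fell to 0.80 with normexp background correction, under the size threshold. TNFRSF9 (4-1BB), outside the naming rule because it was not measured on all 16 arrays and picked after its value was seen, was well above background on no NT, SN or TRAIL array and on all 4 TRAIL+SN arrays, at a mean level of -3.15. TRAIL+SN was at least 4.69-fold above TRAIL for it.

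The rest of the named genes in this shape are not NF-kB genes. The spliceosomal small nuclear RNAs RNU1-5 and RNU11 had contrasts of 1.20 ± 0.11 and 1.04 ± 0.20, and the histone HIST3H2BB one of 1.06 ± 0.18. All 4 TRAIL+SN arrays were above every NT, SN and TRAIL array for each of them, while for HIST3H2BB they overlapped the TRAIL+C3/C2 arrays on the same slide. RNU1-5 lay at 0.89 with spike-in scaling, RNU11 ranged down to 0.74 and HIST3H2BB to 0.76 over the alternatives, each below the size threshold there.

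The genes raised by TRAIL and lower with TRAIL+SN were led by UBD, which encodes the ubiquitin-like modifier FAT10, known as a target of TNF and interferon-gamma. Among the 4 groups UBD was measured only with TRAIL alone, at -0.43, -0.46, 0.21 and -0.01. No array of NT, SN or TRAIL+SN had it well above background, so TRAIL was at least 46.0-fold above NT and at least 30.0-fold above TRAIL+SN. The fitted contrast was -6.68 ± 0.67 (adjusted p = 1.587e-06), a value that rests on levels below background in 3 of the 4 groups.

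LTB encodes lymphotoxin-beta, the membrane ligand of the receptor that starts the slower NF-kB arm. It was at -4.69, -4.57, -5.12 and -4.96 in NT and below the background limit on all SN arrays. TRAIL brought it to 0.27, 0.56, 0.60 and 0.69, and TRAIL+SN to -4.17, -4.15, -3.82 and -3.67. TRAIL+SN minus TRAIL was -4.48 (adjusted p = 4.016e-14), and TRAIL was at least 63.6-fold and TRAIL+SN at least 2.85-fold above SN. The fitted contrast was -3.13 ± 0.29 (adjusted p = 7.074e-07) and uses SN levels below background.

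ITGAM, the alpha chain of the leukocyte integrin Mac-1, rose only with TRAIL alone among the 4 groups. Its levels were -4.02, -4.16, -4.16 and -3.89 in NT, -4.38, -4.61, -4.67 and -4.53 in SN, -1.58, -1.67, -1.96 and -1.66 in TRAIL and -4.70, -4.82, -4.53 and -4.75 in TRAIL+SN. The TRAIL effect was 2.33 ± 0.10 without SN and -0.15 ± 0.10 with SN. PI3, which encodes the protease inhibitor elafin, was at -0.30 ± 0.16 in NT, -0.04 ± 0.05 in SN, 2.66 ± 0.23 in TRAIL and 0.66 ± 0.12 in TRAIL+SN (SD, n = 4). The contrasts were -2.49 ± 0.14 for ITGAM (adjusted p = 1.57e-09) and -2.26 ± 0.14 for PI3 (adjusted p = 8.348e-09). In SN cells TRAIL still raised PI3 by 0.70 ± 0.10, under the size threshold.

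CXCL10, an interferon-inducible chemokine for T cells, was well above background on the 4 TRAIL arrays (-3.22, -3.05, -4.09 and -3.75), on 1 NT array and on no SN or TRAIL+SN array. TRAIL was at least 2.94-fold above TRAIL+SN. The fitted contrast was -2.50 ± 0.60 (adjusted p = 0.004666), also on levels below background, and with normexp it was -0.65. A further CXCL10 probe, well above background on 4 of 16 arrays, gave -3.41. The remaining named genes in this shape were the kallikrein-related peptidase KLK10 with -1.79 ± 0.26, IGFL4 with -1.39 ± 0.20 and PDLIM4 with -2.03 ± 0.43. KLK10 went from 0.90 ± 0.08 with TRAIL to -1.90 ± 0.21 with TRAIL+SN (SD, n = 4), and its NT level was -1.28 ± 0.32. PDLIM4 was a dim probe, well above background on no SN or TRAIL+SN array, and fell to -0.29 with normexp. IGFL4 was at -0.80 with normexp.

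**Figure D2:**
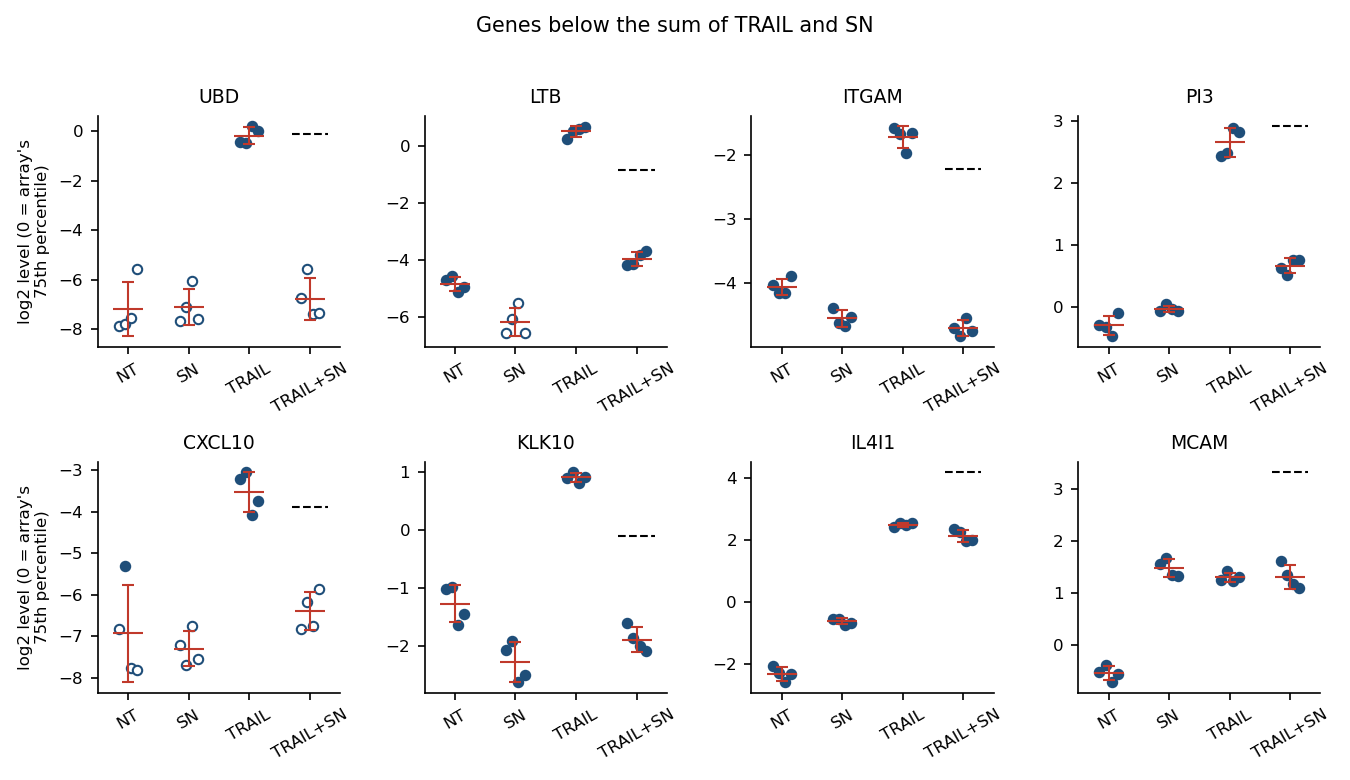
Log2 level on each array (points, open where the probe was not well above background) of 8 genes below the sum, with group mean and SD in red (n = 4 arrays) and the log2 sum of the single effects as a dashed line. UBD, LTB, ITGAM, PI3, CXCL10 and KLK10 are highest with TRAIL alone, and IL4I1 is too, by a smaller difference (TRAIL+SN minus TRAIL is -0.36), whereas the MCAM arrays with TRAIL and TRAIL+SN overlap.

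In the shared-rise shape TRAIL and SN each raised the gene and the joint treatment added less than both together. IL4I1, a secreted amino acid oxidase, was at -2.07, -2.31, -2.59 and -2.34 in NT and -0.55, -0.55, -0.73 and -0.67 in SN. It was at 2.40, 2.54, 2.46 and 2.53 in TRAIL and 2.33, 2.24, 1.95 and 1.98 in TRAIL+SN, with every TRAIL array above every TRAIL+SN array. MCAM, an adhesion molecule, went from -0.54 ± 0.13 in NT to 1.48 ± 0.17 in SN, 1.30 ± 0.09 in TRAIL and 1.31 ± 0.23 in TRAIL+SN, where the 3 treated groups overlapped. The contrasts were -2.06 ± 0.16 for IL4I1 and -2.02 ± 0.16 for MCAM, both with an adjusted p of 1.316e-07. PTGS2 (COX-2) had a contrast of -1.77 ± 0.35 (adjusted p = 0.001283), with TRAIL arrays spread between -2.46 and -0.90 and TRAIL+SN arrays between -2.48 and -2.32.

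GPR37L1, an orphan receptor, had -1.36 ± 0.23 and still was highest in TRAIL+SN, and FLT3LG, the FLT3 ligand, had -1.23 ± 0.25. ICAM2 had -1.33 ± 0.36 and MUC5AC, a gel-forming mucin, -1.06 ± 0.25, both with overlapping TRAIL and TRAIL+SN arrays. The MUC5AC call was lost without any 1 of NT replicate 1, SN replicate 3, TRAIL replicate 4 and TRAIL+SN replicate 2, with values from -0.99 to -0.88, and its other probes gave -1.13 and -1.10. The GPR37L1, FLT3LG and ICAM2 contrasts were -0.32, -0.61 and -0.95 with normexp. The Wnt antagonist DACT1 (-2.57 ± 0.61) was well above background on no NT, TRAIL or TRAIL+SN array and on 2 of 4 SN arrays, so its value describes a probe near background.

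Both subunits of the slower NF-kB arm were below the sum. NFKB2, the precursor of p52, had group means of -1.60 in NT, 0.06 in SN, 0.78 in TRAIL and 1.31 in TRAIL+SN and a contrast of -1.13 ± 0.14 (adjusted p = 2.145e-05). RELB, its partner, had 2.10, 3.09, 5.05 and 4.90 in the same order and a contrast of -1.15 ± 0.11 (adjusted p = 8.865e-07). NFKB1, RELA and REL had contrasts of 0.30, -0.29 and 0.54, under the size threshold. Of 25 NF-kB subunits, inhibitors and regulators 23 were tested. Of these 2 were above and 2 below the sum, beside 2.76% and 0.333% of all genes, and their median was -0.07. TNFAIP3 (A20, 0.64 ± 0.13) and MAP3K8 (0.95 ± 0.13) were positive, NFKBIE (-0.62 ± 0.06) and TNIP1 (-0.70 ± 0.09) negative, all past the p threshold but not the size threshold. TRAIL raised 10 of the 23 at both thresholds without SN and 13 with SN, beside 0.749% and 0.908% of all genes.

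TNF and BIRC3, both NF-kB targets, rose with TRAIL in cells with and without SN and were not called in the contrast. No NT array had TNF well above background, and it was at -4.17 ± 0.49 in SN, -1.47 ± 0.24 in TRAIL and 1.57 ± 0.39 in TRAIL+SN (SD, n = 4). Its contrast was 0.12 ± 0.35 (adjusted p = 0.8502). With normexp it was 2.05 and called, and both values use NT levels below background. BIRC3, which encodes cIAP2, was at -1.18 ± 0.37, 1.63 ± 0.03, 2.18 ± 0.11 and 4.44 ± 0.14 in NT, SN, TRAIL and TRAIL+SN, with a contrast of -0.55 ± 0.17 (adjusted p = 0.02386). On the linear scale, where intensities rather than logs are added, TRAIL+SN was 634% above the sum of the single effects for TNF and 203% above it for BIRC3. Of the 69 genes below the log2 sum 5 were above the linear one, GPR37L1 (by 32.4%) among them.

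On the death receptor side of the pathway, 15 of 17 TRAIL and TNF receptors and death ligands were tested. CD70 was above the sum and LTB below it, beside 2.76% and 0.333% of all genes. TNFRSF10B, the TRAIL receptor DR5, was at 2.24 ± 0.06 in NT, 4.20 ± 0.07 in SN, 3.05 ± 0.13 in TRAIL and 4.71 ± 0.21 in TRAIL+SN. Its contrast was -0.30 ± 0.14 (adjusted p = 0.1493). None of 22 death complex and caspase genes and none of 16 BCL2 family genes tested was called. All were under the size threshold, with 8 and 9 of them at an unadjusted limma p under 0.05. At an adjusted limma p under 0.05 the first list held 2 positive and 4 negative contrasts. The second held 2 and 5, beside 2268 and 2526 among all 20703 genes. Lists of this size would hold under 1 call at the share over all genes. The cell cycle inhibitor CDKN1A was at -4.11 ± 0.21 in NT, 0.16 ± 0.16 in SN, -2.80 ± 0.12 in TRAIL and 0.53 ± 0.29 in TRAIL+SN. Its contrast of -0.94 ± 0.17 (adjusted p = 5.212e-04) was just under the size threshold.

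Of 25 adhesion and innate effector genes inducible by NF-kB 18 were tested, with ICAM1 and C3 above the sum and UBD, PI3 and PTGS2 among those below it. Their median was -0.38 beside -0.01 over all genes. Single calls below the sum, where 0.333% of all genes lay, were FLT3LG among 20 cytokines tested, MUC5AC among 21 mucin and differentiation genes and DACT1 among 13 Wnt genes. MT1M was above it, as were 2.76% of all genes, among 12 metallothioneins.

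The TRAIL effect without SN and the one with SN were measured on different arrays. The first sets slide 3 (TRAIL) against slides 1 and 2 (NT), the second slide 4 (TRAIL+SN) against slide 3 (SN). Slide and treatment cannot be told apart in either effect. By definition TRAIL lay at least 1 below NT in all 286 genes with both single treatments low. Without SN, TRAIL raised 155 genes (0.749%) and lowered 452 (2.18%), and with SN it raised 188 (0.908%) and lowered 34 (0.164%). Of the 155 genes raised without SN 57 were also raised with SN, which is 36.8% of the former and 30.3% of the latter. Their median TRAIL effect was 1.30 without SN and 0.69 with it. Of the 452 genes lowered without SN 4 were lowered with SN, 0.885%, and their median TRAIL effect was -1.54 without SN and -0.03 with it. Chosen the other way, the 188 genes raised with SN had a median effect of 0.61 without SN and 1.27 with it, and the 34 lowered with SN -0.23 and -1.16. Each set was chosen on one of its 2 medians, so the gap between them is no measure of what SN did. Across all genes, which are not independent replicates, the Pearson correlation of the effects was 0.27.

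**Figure D3:**
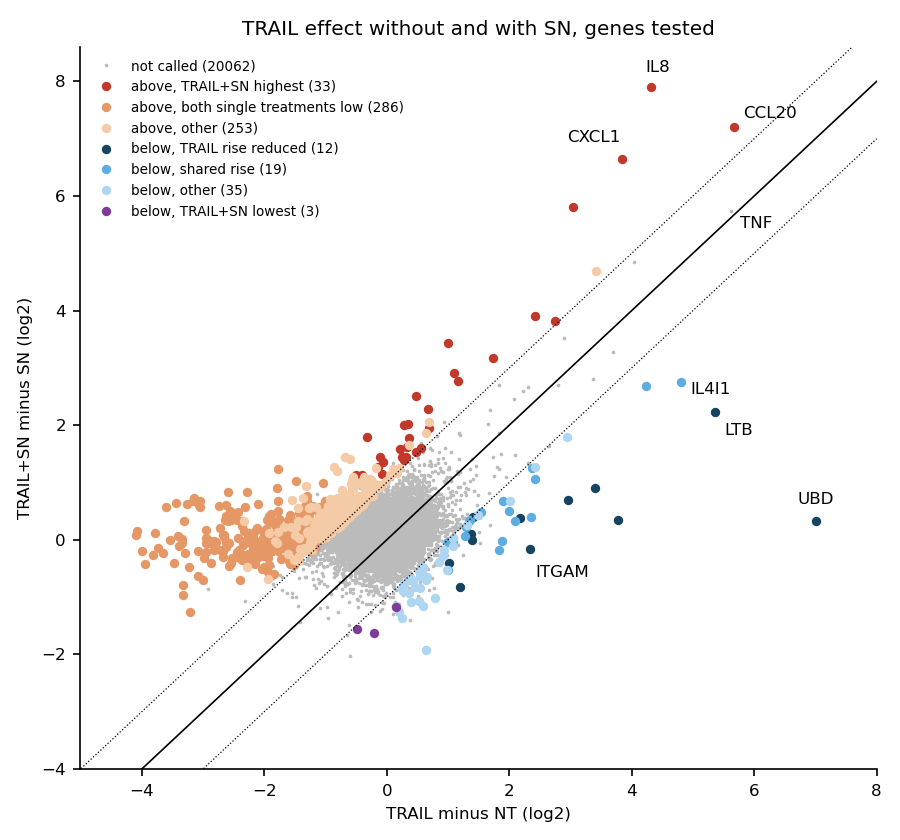
TRAIL minus NT (x, log2) against TRAIL+SN minus SN (y, log2) for all genes tested, with called genes coloured by shape and their number in the key, the line of equal effects solid and a departure of 1 dotted. The 286 genes with both single treatments low lie at negative x and near 0 on y, and the chemokines IL8, CXCL1 and CCL20 lie high on both axes.

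Those 286 genes, the largest shape, had levels that differed by slide. PABPC3, a retroposed poly(A)-binding protein gene, was at 2.44, 3.56, 3.90 and 3.80 in NT. It was between -0.62 and -0.34 in SN, between -0.52 and -0.22 in TRAIL and between -0.87 and -0.59 in TRAIL+SN. In C3/C2 cells, whose arrays shared slides 1 and 2 with NT, it was at 2.68, 3.66, 4.07 and 4.01, and with TRAIL+C3/C2 on slide 4 between -0.70 and -0.52. NACAP1, a pseudogene, ZNF90 and SNORA16B, a small nucleolar RNA, had the same pattern. Their contrasts were 3.56 ± 0.37 for PABPC3, 3.54 ± 0.44 for NACAP1, 3.36 ± 0.45 for ZNF90 and 2.97 ± 0.36 for SNORA16B, with another SNORA16B probe at 0.11. MT1M had 1.77 ± 0.24.

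In 236 of the 286 genes (82.5%) every NT and C3/C2 array lay above every array of the other 4 groups, a pattern that 2.63% of all genes showed. The shape requires NT to lie at least 1 above SN and TRAIL, so part of this gap follows from the choice of genes. The levels in C3/C2 and TRAIL+C3/C2 did not enter the definition of the shape. In 234 of the 286 (81.8%) NT replicate 1 and C3/C2 replicate 1, the arrays on slide 1, were each the lowest of their group, against 9.67% of all genes. The median levels were -1.43 in NT, -1.66 in C3/C2, -3.53 in SN, -3.33 in TRAIL, -3.35 in TRAIL+C3/C2 and -3.50 in TRAIL+SN. Within slide 3, the median of SN minus TRAIL was -0.31. Most of the 286, 206 or 72.0%, were transcripts without a gene symbol, against 27.8% of all genes tested, and the median GC content of their probes was 41.7% against 45.0%. What slide, hybridisation and treatment each contributed cannot be told apart. Of the 253 genes above the sum with no named shape, 45 had all NT and C3/C2 arrays highest. The 33 with TRAIL+SN highest cannot show that pattern by definition, so they were not compared.

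**Figure D4:**
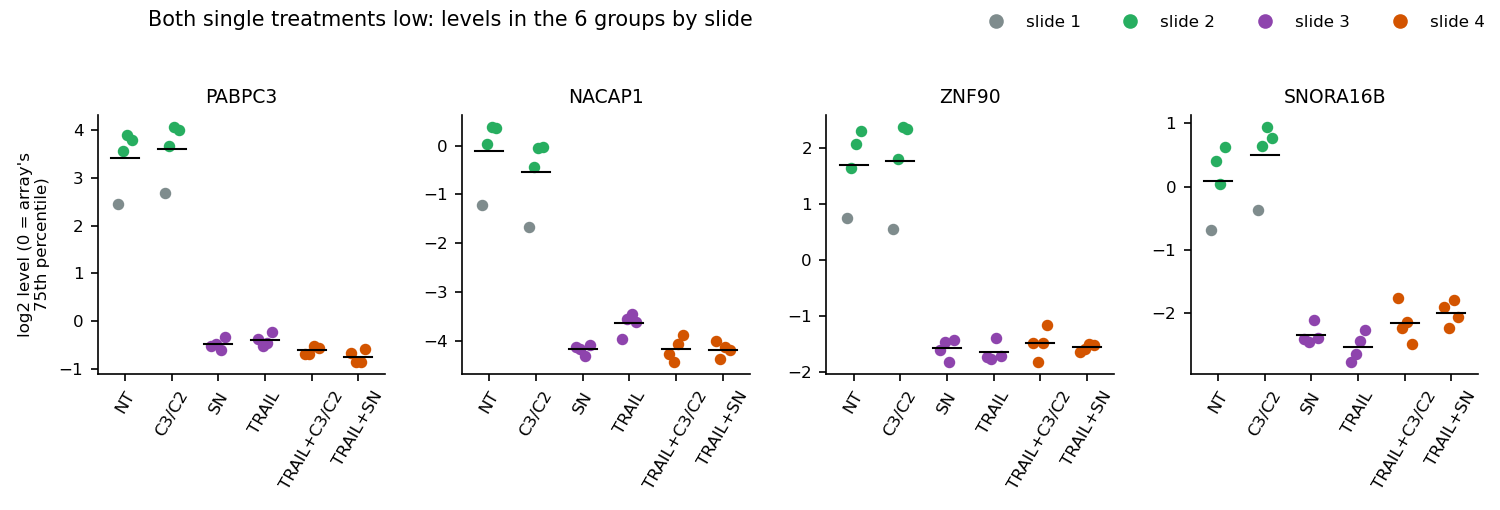
Log2 level on each of the 24 arrays of 4 genes above the sum with both single treatments low, by group (x) and slide (colour), with group means as lines. The arrays on slides 1 and 2 are high, those on slides 3 and 4 low, and the array on slide 1 is the lowest of its group.

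C3/C2, which holds the main acids of SN, gave a second contrast, TRAIL by C3/C2, that shares its NT and TRAIL arrays with the one for SN. The difference between the contrasts drops those shared arrays and was tested. It sets TRAIL+SN against TRAIL+C3/C2 within slide 4, but SN on slide 3 against C3/C2 on slides 1 and 2, so slide and treatment cannot be told apart in it either. It was positive in 451 genes (2.18%) and negative in 91 (0.44%), and 248 of the 286 genes with both single treatments low were among those that differed. Of the 33 genes with TRAIL+SN highest 3 differed, and of the 12 raised by TRAIL and lower with TRAIL+SN 1 did. CXCL1 had 2.79 for SN and 2.45 for C3/C2, CXCL2 2.76 and 2.46, IL8 3.59 and 2.73, and ICAM1 1.50 and 1.60. None of these differences passed the test (adjusted p = 0.2716, 0.3559, 0.2469 and 0.7208), and with standard errors of 0.14 to 0.46 this does not show that the contrasts are alike. For IL8 both contrasts use NT, SN and C3/C2 levels below background.

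NFKBIA was one that did differ, with 1.45 for SN and 0.27 for C3/C2, a difference of 1.18 ± 0.18 (adjusted p = 1.88e-04). Its C3/C2 arrays were at 3.45, 3.33, 4.06 and 4.02, above both NT and SN. CXCL10 differed in the other direction, with -2.50 for SN and 0.11 for C3/C2, a difference of -2.61 ± 0.60 (adjusted p = 0.005585). Within slide 4 all TRAIL+C3/C2 arrays (-3.92, -3.53, -3.59 and -4.06) were well above background and no TRAIL+SN array was, so TRAIL+C3/C2 was at least 2.475-fold above TRAIL+SN (adjusted p = 4.959e-05). On that slide TRAIL+SN minus TRAIL+C3/C2 was -1.85 for LTB (adjusted p = 4.754e-07) and 0.88 for IL8 (adjusted p = 0.0376). It was -1.11 for CXCL1 (adjusted p = 2.478e-06), -0.65 for CXCL3 (adjusted p = 0.001267), -0.50 for CCL20 (adjusted p = 0.08988) and -0.05 for CXCL2 (adjusted p = 0.8006). The 33 genes with TRAIL+SN highest had median levels of -2.29 with TRAIL+SN and -2.30 with TRAIL+C3/C2. That shape compares TRAIL+SN with NT, SN and TRAIL only. ITGAM had contrasts of -2.49 for SN and -2.84 for C3/C2 and UBD -6.68 and -4.78, with no difference past the threshold (adjusted p = 0.1038 and 0.06597). The UBD contrasts rest on levels below background in all groups but TRAIL and 1 array of TRAIL+C3/C2.

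**Figure D5:**
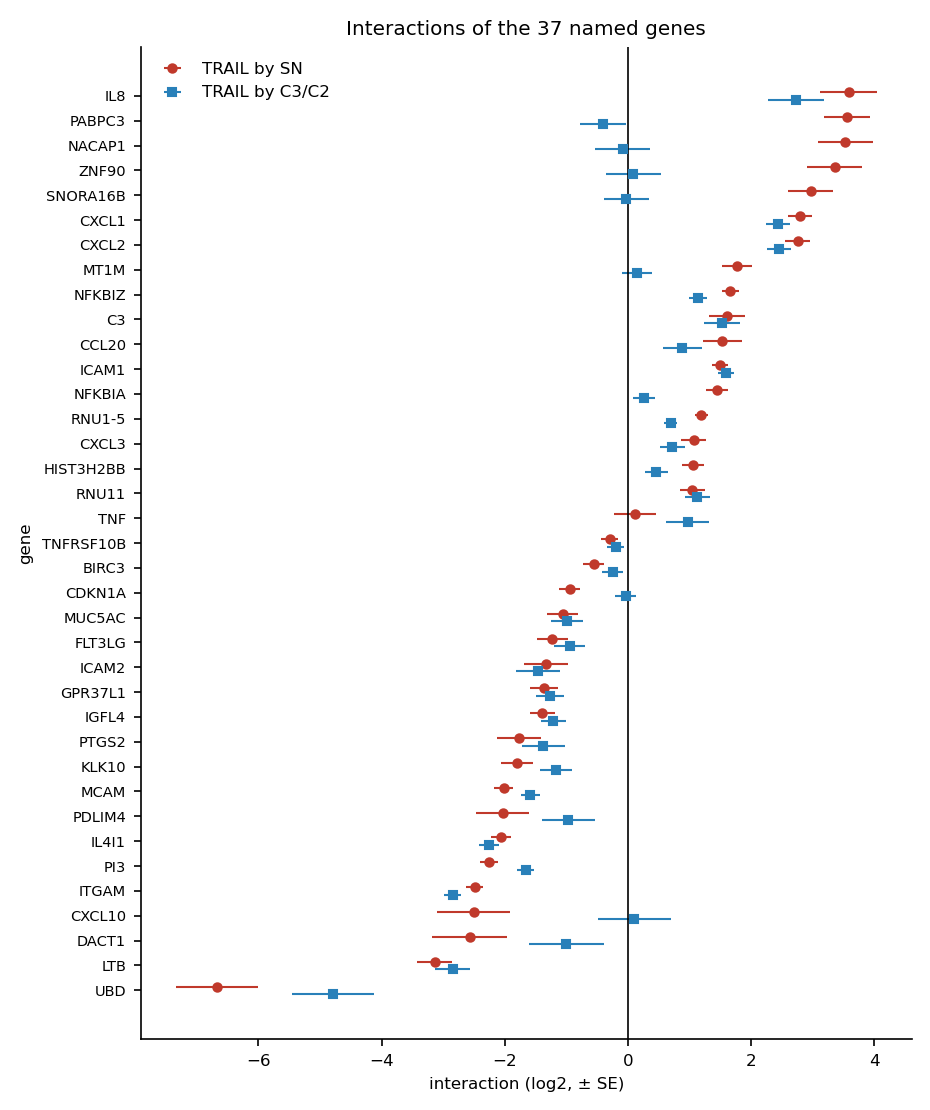
Contrast of TRAIL by SN (red circles) and TRAIL by C3/C2 (blue squares) for the 37 named genes, in log2 with SE. Both share their NT and TRAIL arrays, and they lie far apart for PABPC3, NACAP1, ZNF90, SNORA16B, MT1M, CXCL10 and NFKBIA.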

How the data were processed

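RNA of 24 HT29 samples was hybridised to 1-colour Agilent human arrays, and per the file headers the intensities were extracted with Agilent Feature Extraction 10.7.3.1. The deposited intensity per spot is the processed signal, background-subtracted by that software, and the deposited normalized table holds the same intensity divided by each array's median. Here control spots and outlier spots were dropped, spots of a probe averaged, and log2 taken relative to the 75th percentile of each array, which ran from 453.4 to 1008.6. Precision is limited by 4 arrays a group. A probe was kept if every array of some group measured it well above background (27957 of 50599), and the brightest kept probe stood for a gene. limma 3.58.1 was fitted in R over all 6 groups (18 residual degrees of freedom), with Benjamini-Hochberg adjustment over 20703 genes.

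Named genes were the largest contrasts of each shape, without unnamed transcripts (10 with TRAIL+SN highest, 4 with both single treatments low and 10 below the sum, all measured on 16 arrays, then 4 below the sum measured with TRAIL), the largest call of each gene list, and 5 preset genes. The members, lists and rules were chosen with earlier results of these data known. 1 gene of the lists is not reported here. The code was tested on simulated data. Alternatives were other scalings, normexp background correction, other filters, probe averaging, slide as a random block, a replicate block and leaving out arrays; leaving out slide 1 was added after seeing the data.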

Additional observations from a re-analysis of the deposited data

Results flagged for a closer look

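The contrast was called above the sum in 572 genes and below it in 69, and slide and treatment cannot be told apart in it. Its difference between SN and C3/C2 was called in 451 genes in the positive and 91 in the negative direction. Among the named genes this difference between SN and C3/C2 was 3.97 for PABPC3, 3.62 for NACAP1, 3.27 for ZNF90, 3.00 for SNORA16B, 1.63 for MT1M, 1.18 for NFKBIA and -2.61 for CXCL10. SN was on slide 3 and C3/C2 on slides 1 and 2, so slide and treatment cannot be told apart in these differences, and CXCL10 was below background in SN, C3/C2 and TRAIL+SN.

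In 9 of 148 sets of 4 arrays (37 named genes in 4 groups) 1 array stood apart from the other 3 by Dixon's criterion, and chance alone marks about 1 set in 20. MT1M was at 0.77 in NT replicate 1 against 1.34 to 1.44 on the others, and PDLIM4 at -5.52 there against -5.36 to -5.33. UBD was at -5.55 in NT replicate 4 and DACT1 at -7.01 in NT replicate 2, neither well above background. In SN, SNORA16B was at -2.11 and BIRC3 at 1.68 in replicate 3, and TNFRSF10B at 4.30 in replicate 2. ZNF90 was at -1.38 in TRAIL replicate 3, and PDLIM4 at -6.37 in TRAIL+SN replicate 1.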

How the results depend on the processing

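The alternatives changed counts more than directions. Genes above the sum numbered 572, and 340 with spike-in scaling, 290 with normexp, 343 with the filter on all 16 arrays and 2268 without a minimum size. Genes below numbered 69, and 161 with the authors' table, 109 with quantile normalization, 296 with spike-in scaling, 16 with normexp, 25 with that filter and 2526 without a minimum size. The authors' table moved the median contrast of all genes to -0.17 and spike-in scaling to -0.31, so each contrast is lower there by about that much. For TRAIL+SN highest the 33 became 21 with the authors' table, 12 with spike-in scaling, 12 with normexp, 14 with the filter and 53 without a minimum size. For both single treatments low the 286 became 152 with normexp and 179 with the filter. For the TRAIL rise reduced with SN the 12 became 19 with the authors' table, 6 with normexp and 6 with the filter. For the shared rise the 19 became 30, 3 and 10 in that order, and 36 without a minimum size. The filter tests fewer genes, and the cause of the other changes was not tested.

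Leaving out 1 array gave 524 to 644 genes above and 60 to 86 below, 28 to 39 with TRAIL+SN highest, 267 to 323 with both single treatments low, 10 to 15 with a reduced TRAIL rise and 15 to 26 with a shared rise. Without the arrays of slide 1 there were 592 above and 80 below. With the replicate block there were 598 above, 81 below, 34, 296, 14 and 21 in the 4 shapes. Same-numbered arrays of different groups correlated positively in their deviations in all 24 pairs, between 0.06 and 0.31, with 2 values not over 0.1. In 37 of 48 comparisons of an array with the 4 arrays of another group it correlated best with its own number. For 8 of 16 arrays this held in every other group. The main fit did not take the numbers as pairs because the labels do not give a pairing. Whether the numbers follow the 2 experiments was not tested. For the 37 named genes, 948 of 991 values kept direction and side of the thresholds. The TNF contrast changed sign to -0.05 with the authors' table, -0.19 with spike-in scaling, -0.052 without NT replicate 3 and -0.058 without SN replicate 2, in a range of -0.058 to 0.37 over the arrays left out. CDKN1A passed the size threshold under 5 alternatives, with values down to -1.24. Dim signal limits UBD, CXCL10, PDLIM4, DACT1, IL8, LTB and TNF, each not well above background on any array of at least 1 of the 4 groups.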

Other observations

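Beside 2.76% of all genes above the sum and 0.333% below it, 21 of 33 lists had no call. Of their 587 tested members 175 had an unadjusted limma p under 0.05. Among these lists were interferon and antigen presentation genes (39 tested, median contrast -0.26), integrated and endoplasmic reticulum stress genes (22 tested, median -0.31) and ribosome biogenesis (22 tested, median -0.16). Others were heat shock proteins (17, -0.06), DNA replication genes (29, -0.01) and mitotic genes (22, -0.02). Positive and negative contrasts at an adjusted limma p under 0.05, of any size, numbered 1 and 1, 0 and 6, 1 and 7, 0 and 4, 2 and 4, and 0 and 0 in that order. Among all genes they numbered 2268 and 2526.

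Other gene families did hold calls, beside 2.76% of all genes above the sum and 0.333% below it. The replication-dependent histones had 6 of 64 members above the sum and none below, with a median of 0.26. HIST1H4H was the example with a high signal, at 2.30 in NT, 0.92 in SN, 1.97 in TRAIL and 1.85 in TRAIL+SN and a contrast of 1.26 ± 0.15 (adjusted p = 1.407e-05), and it was chosen after its values were seen. Of 426 zinc finger genes named ZNF 17 were above and 1 below. Of 216 small nucleolar RNAs 3 were above, a share under that of all genes. ZNF90 and SNORA16B, among those above, had levels that differed by slide. Of 153 ribosomal protein genes none was called (40 at an unadjusted limma p under 0.05). At an adjusted limma p under 0.05 alone, 3 had a positive and 21 a negative contrast.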
